A study of Mus musculus with 50 samples.

Results

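The 5 genes described here are *Chat*, *Slc18a3*, *Slc10a4*, *Slc5a7* and *Ache*. The products of *Chat*, *Slc18a3*, *Slc5a7* and *Ache* make, package, recapture the precursor of, or break down the transmitter acetylcholine. *Slc10a4* encodes a vesicle protein found in cholinergic and monoaminergic neurons. All 5 were chosen by symbol from the 55385 genes of the deposited gene tables. The rule used no measured values, but earlier results of these data were known when the genes were chosen. Their RNA was read in 28 mouse RNA-seq libraries of spinal motor neurons and the chromatin around them in 22 ATAC-seq libraries, 2 per group. In the spinal cord, E10.5 was 3 RNA libraries of whole cells sorted for GFP from heterozygous embryos of the HB9-GFP transgenic strain (C57BL/6- HB9-GFP). All later ages were nuclei captured through the tagged nuclear envelope protein of animals carrying 1 copy each of a Cre knocked in at the *Chat* gene and of the Cre-dependent SUN1 tag (C57BL/6- Chat-Cre;SUN1-GFP-3xMYC): E13.5 with 2 RNA libraries, P4 with 3, P13 with 2, P21 with 3, P56 with 3 and 2 years with 2. Each tissue library pooled several animals of both sexes, and the Cre that selected the nuclei reads out a member of the set, also in some neurons that are not motor neurons. In culture, motor neurons were differentiated from 1 embryonic stem cell line with the same 2 alleles. They were taken as embryoid bodies at 0 days in vitro (DIV0, 2 RNA libraries), and after co-culture with newborn cortical astrocytes at DIV7 (2 libraries) and DIV28 (3 libraries). A further 3 libraries at DIV28 came from cultures kept in 1 µM tetrodotoxin (TTX), which blocks voltage-gated sodium channels and so action potentials. The nuclear or cellular source was the same within the spinal cord from E13.5 on, whereas E10.5 differed from it in age, strain, sorting, whole-cell RNA and cord region (the thoracic cord was included at E10.5 but not in the later RNA libraries), and these cannot be told apart. The ATAC-seq libraries were made from sorted cells at E10.5 and otherwise from nuclei sorted by flow cytometry, with the thoracic cord included at every age.

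Motor neurons signal to muscle with acetylcholine. Choline acetyltransferase, the product of *Chat*, joins choline and acetyl-CoA in the axon terminal, and the vesicular acetylcholine transporter, the product of *Slc18a3*, loads the transmitter into synaptic vesicles in exchange for protons. Acetylcholinesterase, the product of *Ache*, splits acetylcholine in the synaptic cleft, and the high-affinity choline transporter, the product of *Slc5a7*, returns the choline to the terminal, the step that limits further synthesis. *Slc10a4* encodes a vesicle protein of the bile acid transporter family that is found in cholinergic and monoaminergic neurons and whose cargo is less well defined. *Slc18a3* lies inside an intron of *Chat*, an arrangement named the cholinergic gene locus and shared by many animals.

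In the mm10 annotation (GENCODE vM21), *Chat* (ENSMUSG00000021919.8) ran from chr14:32408203-32465989 on the minus strand, and the single exon of *Slc18a3* (ENSMUSG00000100241.1) from chr14:32462438-32464850 on the same strand. *Slc5a7* (ENSMUSG00000023945.7) lay at chr17:54273590-54299034, minus strand. *Slc10a4* (ENSMUSG00000029219.10) and *Ache* (ENSMUSG00000023328.14) were both on the plus strand of chromosome 5, at chr5:73006883-73012955 and chr5:137287519-137294466. *Slc18a3* shared all of its 2413 bp with *Chat* but no exon, so that RNA of unspliced *Chat* could be counted under it, and the size of that share was not tested. The antisense gene *Gm2990* overlapped *Chat* by 948 bp with 0 exonic bases, and *Gm42456* overlapped exons of *Ache* by 98 bases on the opposite strand.

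The bases just upstream of each RefSeq start, without those of an annotated exon, show how unlike the promoters of these genes are in composition, and they are given 5′ to 3′ on the gene's strand (RefSeq, GRCm38.p6). Capitals mark GC boxes, GGGCGG on either strand, the binding motif of Sp family factors. The *Chat* window was chr14:32465990-32466159, that of *Slc18a3* chr14:32464851-32465100, that of *Slc10a4* chr5:73006654-73006882, that of *Slc5a7* chr17:54299035-54299284, and that of *Ache* chr5:137288058-137288253.
Chat: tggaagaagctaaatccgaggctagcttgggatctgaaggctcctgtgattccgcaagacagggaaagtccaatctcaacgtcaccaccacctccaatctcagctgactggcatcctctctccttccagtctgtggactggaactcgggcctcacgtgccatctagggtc
Slc18a3: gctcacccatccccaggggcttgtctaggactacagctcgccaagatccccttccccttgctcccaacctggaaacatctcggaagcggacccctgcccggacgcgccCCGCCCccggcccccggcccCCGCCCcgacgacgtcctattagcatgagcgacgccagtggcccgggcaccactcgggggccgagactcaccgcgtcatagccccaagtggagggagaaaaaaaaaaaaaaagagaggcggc
Slc10a4: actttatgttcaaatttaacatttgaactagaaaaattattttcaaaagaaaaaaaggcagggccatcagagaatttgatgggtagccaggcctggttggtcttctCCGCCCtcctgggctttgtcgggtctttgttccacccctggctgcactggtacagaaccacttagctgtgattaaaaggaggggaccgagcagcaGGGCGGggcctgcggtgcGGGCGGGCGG
Slc5a7: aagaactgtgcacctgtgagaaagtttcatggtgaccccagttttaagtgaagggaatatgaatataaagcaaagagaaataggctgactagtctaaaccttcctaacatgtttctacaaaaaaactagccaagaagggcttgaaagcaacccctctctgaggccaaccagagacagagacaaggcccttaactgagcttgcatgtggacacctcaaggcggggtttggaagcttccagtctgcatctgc
Ache: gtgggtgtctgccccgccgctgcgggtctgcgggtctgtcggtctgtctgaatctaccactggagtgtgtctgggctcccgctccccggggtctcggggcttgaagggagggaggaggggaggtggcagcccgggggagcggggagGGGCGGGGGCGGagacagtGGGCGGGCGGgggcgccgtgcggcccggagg
*Slc18a3* had 2 GC boxes, and *Slc10a4* and *Ache* had 4 each, some of them overlapping. *Chat* and *Slc5a7* had 0. Of 32851 promoters of 300 bases around a start, 35.7% held at least 1. Over the 300 bases around each start the GC content was 74.0% at *Ache* and 67.0% at *Slc18a3*, against 44.7% at *Slc5a7*, with a median of 52.7% over all promoters, and *Slc5a7* held 1 CpG where *Ache* held 30 and *Slc18a3* held 27. *Slc5a7* was the only member with TATAAA, present in 13.6% of all promoters. A core of the RE1 element, the motif of the neuronal gene repressor REST (CAGCACC, 2 bases, GGACAG), was found once near the members, at chr14:32467783-32467803 on the minus strand, 1797 bases upstream of the *Chat* start, with the core in capitals.
RE1 core: gtcCAGCACCacGGACAGttc
The same letters occurred 620 times in the genome. No accessible region lay over the core at *Chat*, and the nearest was 436 bases away.

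Library depth ranged from 2704682 to 21823500 expected counts with a median of 4292675, and the 5 genes together took between 93.8 CPM, in E13.5 replicate 2, and 811.9 CPM, in DIV0 replicate 1, of the expected counts. Levels below are normalised counts (median-of-ratios scaling over all 28 libraries), and a difference was called where edgeR's quasi-likelihood test gave an unadjusted p under 0.001 and at least a 2-fold change, with adjusted p (Benjamini-Hochberg) over all genes of the fit. In such bulk libraries, fewer cells of a type and less RNA per cell cannot be told apart. The motor neuron markers were present in every group, with 8 listed genes summing to 4318 to 63670 normalised counts per library. The E13.5 libraries, and to a lesser extent those at P4, stood apart in markers of vessel and blood cells. At E13.5 the 5 endothelial markers summed to 12230 and 23150 normalised counts in replicates 1 and 2, against 5.34 to 17.3 at E10.5, where *Cdh5* was at 0, and against 35.0 to 70.3 at P21. The 6 erythroid markers summed to 10440 and 10530 at E13.5, against 0 to 2.29 at E10.5 and 203 to 385 at P21. At P4 the endothelial sum was still 5338 to 7248 and the erythroid sum 1138 to 1541, against 326 to 466 and 241 to 297.5 at P13. The study's methods report blood vessel contamination of the nuclei at both E13.5 and P4. All 5 members were higher in E13.5 replicate 1 than in replicate 2, the library with the larger endothelial sum. The part of these cells in the E13.5 and P4 results was not tested, and values of the members without each E13.5 library are given with the E13.5 results. A further doubt concerned a library titled DIV0 replicate 3, whose deposited table is named as DIV28. It was used as DIV28 replicate 3, as the 3 DIV28 and 2 DIV0 replicates in a supplementary figure legend of the study require. Results that rest on it are also given with it taken as DIV0.

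*Chat*, the enzyme gene, was low in the embryo and higher at every postnatal age of the spinal cord, with no age sampled between E13.5 and P4. At E10.5 it had 107, 82.3 and 173 normalised counts, and at E13.5 225 and 113, so that these groups overlapped. All later cord libraries were higher: 450 to 495 at P4, 593 and 656 at P13, 747 to 861 at P21, 644 to 747 at P56, and 723 in both libraries at 2 years. The group order in the cord was P21, 2 years, P56, P13, P4, E13.5 and E10.5, from 807 ± 57.7 (SD, n = 3) down to 121 ± 47.0 (SD, n = 3). In culture the earliest stage was the highest, and DIV7 and DIV28 overlapped. DIV0 had the highest values of any library, 2259 and 1541, DIV7 had 388 and 407, DIV28 532, 370 and 357, and DIV28 with TTX 267, 159 and 103. Over all 11 groups the highest mean was 15.7 times the lowest, and 4 of 10 neighbours in the order did not overlap: DIV0 and P21, P21 and 2 years, P13 and P4, and DIV7 and DIV28 with TTX. Such counts, here and for the other members below, describe single genes. How often neighbours failed to overlap over all genes was not counted.

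*Slc18a3*, the vesicular acetylcholine transporter gene inside *Chat*, did not follow its host. It was high at E10.5, with 553, 274 and 912 normalised counts, and lower at E13.5, with 195 and 81.9. From P4 to 2 years it stayed within a narrow range, from 169 to 296. The highest cultures were again the 2 DIV0 libraries with 1090 and 778, followed by 403 and 554 at DIV7, 326 to 572 at DIV28 and 133 to 490 with TTX. The means of its 11 groups spanned 6.75-fold, the least of the 5 genes, and 1 pair of neighbours in the order, 2 years and P56, did not overlap.

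*Slc10a4*, the gene of the other vesicle protein, had its highest mean at E10.5, with 773, 451 and 1162 normalised counts. It was at 130 and 61.6 at E13.5, 137 to 230 at P4, 127 and 186 at P13, 265 to 314 at P21, 159 to 208 at P56 and 173 and 135 at 2 years. P21 stood above every other cord age from E13.5 on, without overlap. In culture it fell from 456 and 519 at DIV0 to 101 and 140 at DIV7 and to 70.0 to 112 at DIV28, and the TTX libraries at 45.1 to 55.5 were the lowest of all. The group means spanned 15.6-fold, with 3 of 10 neighbours not overlapping.

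*Slc5a7*, the choline transporter gene, was low at E10.5 and high in the cord from P4 on. It had 48.9, 14.5 and 39.7 normalised counts at E10.5, 530 and 211 at E13.5, and then 1427 to 1695 at P4, the highest group. Every later cord library lay between 926 and 1267, so that P4 was above all of them. In culture it went the other way from *Chat*, with 359 and 286 at DIV0, 441 and 307 at DIV7 and 680 to 714 at DIV28, all below every cord library from P4 on. With TTX it was at 400 to 604. The group means spanned 46.1-fold, and 5 of 10 neighbours did not overlap.

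*Ache*, the gene of the degrading enzyme, climbed through cord development and had the widest span, 50.7-fold. At E10.5 only 8, 14 and 23 expected counts were behind its 6.11, 9.68 and 17.5 normalised counts. The values were 64.6 and 45.05 at E13.5, 172 to 230 at P4, 311 and 245 at P13, 363 to 496 at P21 and 524 to 615 at P56, and 426 and 457 at 2 years. P56 was the highest group and did not overlap 2 years, the next in order. The cultures lay in the range of the young cord, with 204 and 188 at DIV0, 195 and 149 at DIV7, 184 to 396 at DIV28 and 119 to 229 with TTX.

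**Figure D1:**
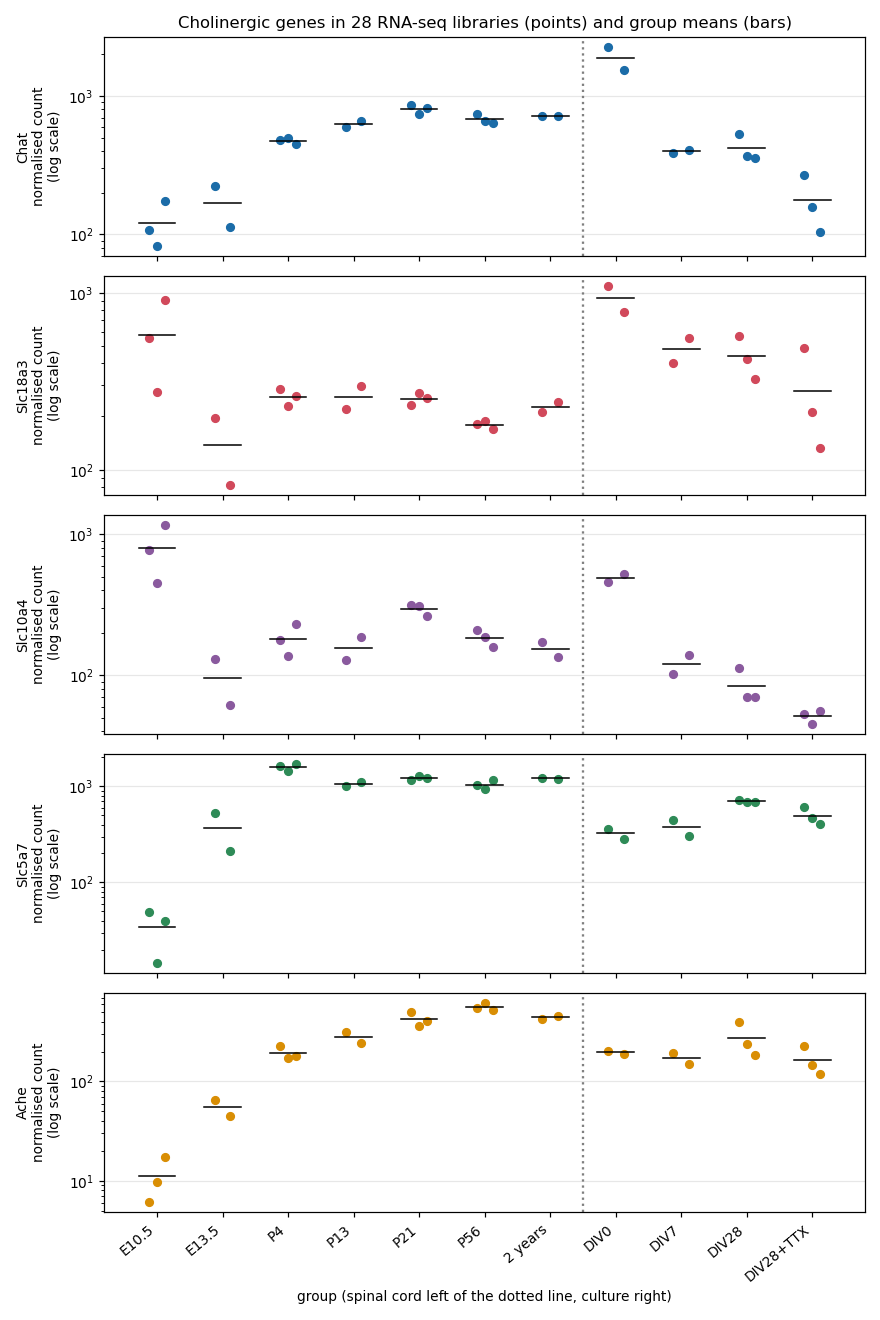
Normalised counts of the 5 genes (log scale) in each of the 28 RNA-seq libraries, with points for libraries and bars for group means, spinal cord left of the dotted line and culture right of it. *Chat*, *Slc5a7* and *Ache* rise from E10.5 to the postnatal cord, *Slc18a3* and *Slc10a4* have high E10.5 libraries (274 to 912 and 451 to 1162), and *Chat* is highest at DIV0 (1541 and 2259).

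Between E10.5 and E13.5 the called members moved in opposite directions. *Slc5a7* rose 9.61-fold (log2 fold change 3.26 ± 0.35 SE, adjusted p = 2.83e-07, edgeR) and *Ache* rose 4.33-fold (2.11 ± 0.31, adjusted p = 1.03e-05). The genes of both vesicle proteins fell, *Slc10a4* by 3.25 ± 0.38 on the log2 scale (adjusted p = 7.86e-07, edgeR) and *Slc18a3* by 2.26 ± 0.40 (adjusted p = 6.71e-05). *Chat* did not pass (0.30 ± 0.27, adjusted p = 0.318, edgeR). Thus 4 of 5 members were called, 2 higher and 2 lower, where 44.1% of the 15030 genes tested were called, 24.6% higher and 19.4% lower. Without E13.5 replicate 2, *Slc18a3* was at −1.75 and no longer called, while *Chat* was at 0.73, *Slc10a4* at −2.78, *Slc5a7* at 3.79 and *Ache* at 2.37. Without E10.5 replicate 3, *Slc18a3* was at −1.59. Without E13.5 replicate 1 the log2 changes were −0.26 for *Chat*, −2.99 for *Slc18a3*, −3.85 for *Slc10a4*, 2.47 for *Slc5a7* and 1.85 for *Ache*, and *Ache* was at 2.76 without E10.5 replicate 3. Fitted on these 5 libraries alone, only *Slc5a7* and *Slc10a4* were called. All 5 endothelial and all 5 tested erythroid markers were called higher at E13.5.

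From E13.5 to P4 all 5 members had a positive log2 change, and 3 were called. *Slc5a7* (log2 fold change 2.26 ± 0.34, adjusted p = 1.51e-05), *Ache* (2.00 ± 0.26, adjusted p = 3.31e-06) and *Chat* (1.67 ± 0.27, adjusted p = 3.85e-05) were called higher by edgeR, 3 of 5 members, where 42.7% of all genes were called and 23.8% were called higher. *Slc10a4* was at 1.11 ± 0.36 (adjusted p = 0.0116, edgeR) and *Slc18a3* at 1.09 ± 0.39 (adjusted p = 0.0184), short of the threshold. Without E13.5 replicate 1 these were at 1.71 and 1.82, *Slc5a7* at 3.06, *Ache* at 2.26 and *Chat* at 2.23. Without replicate 2 they were at 0.64 and 0.57, *Slc5a7* at 1.74, *Ache* at 1.75 and *Chat* at 1.24, with the same 3 called. At the same step 3 of 5 endothelial and 4 of 5 erythroid markers were called lower, and their part was not tested.

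After P4 no step between neighbouring ages gave a call. From P4 to P13 the largest log2 change was that of *Ache*, 0.61 ± 0.23 (adjusted p = 0.0467, edgeR), the only member with an unadjusted p under 0.05 by edgeR or DESeq2, in a step where 13.3% of all genes were called. Endothelial markers summed to 5338 to 7248 normalised counts at P4 and 326 to 466 at P13, and their part in this step was not tested. From P13 to P21 *Slc10a4* was at 0.85 ± 0.35 (adjusted p = 0.0917) and *Ache* at 0.50 ± 0.23 (adjusted p = 0.131), the 2 members with an unadjusted p under 0.05, and 0 were called by edgeR or DESeq2, beside 7.30% of all genes. From P21 to P56 *Slc10a4* was at −0.70 ± 0.31 (adjusted p = 0.745, edgeR), the only member with an unadjusted p under 0.05 and like the others not called, and 0.173% of all genes were called. DESeq2 put both *Ache* and *Slc10a4* under 0.05 there and called 0. From P56 to 2 years the log2 changes lay between −0.27 for *Ache* and 0.42 for *Slc18a3*, with 0 members under 0.05 and 0 called by edgeR and DESeq2, beside 0.685% of all genes.

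Over the whole interval from E13.5 to P21, 4 of 5 members were called higher, where 56.1% of all genes were called and 29.8% were called higher. *Ache* rose 8.69-fold (log2 fold change 3.12 ± 0.27, adjusted p = 1.06e-08, edgeR), *Chat* 5.39-fold (2.43 ± 0.28, adjusted p = 4.21e-07), *Slc5a7* 3.66-fold (1.87 ± 0.33, adjusted p = 6.18e-05) and *Slc10a4* 3.53-fold (1.82 ± 0.37, adjusted p = 0.000207). *Slc18a3*, at 1.05 ± 0.39 (adjusted p = 0.0201, edgeR), was not called. Without E13.5 replicate 2, *Slc10a4* was at 1.35 and lost its call, *Slc5a7* was at 1.35, *Slc18a3* at 0.53, *Ache* at 2.87 and *Chat* at 2.005. Without replicate 1 they were at 2.42, 2.68, 1.78, 3.38 and 2.999 in the same order. All 5 endothelial and all 5 tested erythroid markers were called lower from E13.5 to P21, and all 6 oligodendrocyte markers higher.

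The balance of the genes within a library, which does not rest on scaling between libraries, was compared per kilobase of effective length. At E10.5 *Slc10a4* was the highest and *Slc18a3* the next in all 3 libraries, at 6.87 to 8.97 and 3.50 to 5.78 times the *Chat* level. By E13.5 both were below *Chat*, at 0.672 to 0.740 and 0.687 to 0.719 times its level, in both libraries. The *Slc18a3* to *Chat* ratio then went down with age to 0.255 to 0.301 at P56, and *Slc18a3* was the lowest of the 5 genes in all P21 and P56 libraries. The *Slc5a7* to *Chat* ratio was 0.0971 to 0.222 at E10.5, 1.53 to 2.10 at P4, where *Slc5a7* was the highest gene in all 3 libraries, and 0.735 to 0.999 from P21 to 2 years, where *Chat* was the highest in every library. In culture the *Slc5a7* to *Chat* ratio was 0.0930 to 0.0957 at DIV0, just below the E10.5 range, and 0.738 to 1.19 at DIV28, a range that held most of the adult values. The *Slc18a3* to *Chat* ratio instead moved away from that of the adult cord, from 0.475 to 0.485 at DIV0 to 0.886 to 1.18 at DIV28. *Slc10a4* was the lowest of the 5 in all 6 libraries at DIV28, with and without TTX.

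**Figure D2:**
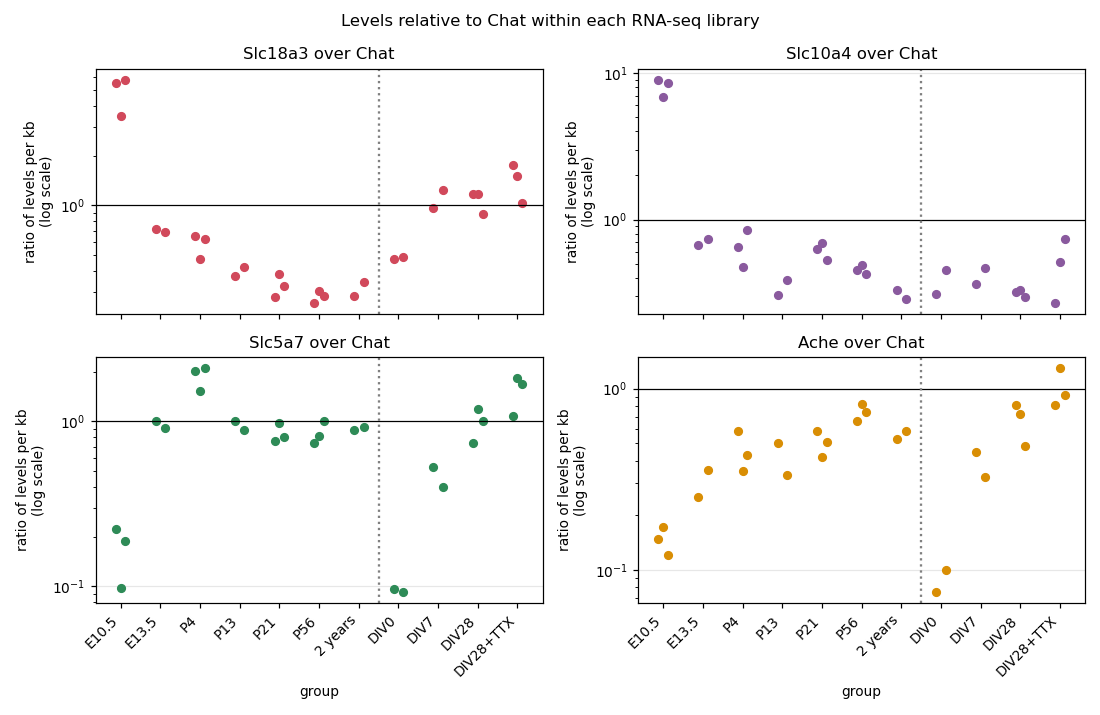
Level of each gene over that of *Chat* in the same library, per kilobase of effective length (log scale), for 28 libraries, spinal cord left of the dotted line and culture right of it, with the line at 1 marking equal levels. *Slc18a3* and *Slc10a4* are above *Chat* in all E10.5 libraries, and *Slc5a7* is far below *Chat* at DIV0 (0.0930 to 0.0957) and near its level at DIV28 (0.738 to 1.19).

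In culture *Chat* and *Slc10a4* fell, and *Slc5a7* had its highest values at DIV28. From DIV0 to DIV7 *Chat* fell by 2.25 ± 0.41 on the log2 scale (adjusted p = 0.00231, edgeR) and *Slc10a4* by 2.00 ± 0.33 (adjusted p = 0.00118), 2 of 5 members called lower, where 11.2% of 12890 genes were called and 2.81% were called lower. *Slc18a3* was at −0.96 ± 0.50 (adjusted p = 0.194, edgeR), *Slc5a7* at 0.22 ± 0.28 and *Ache* at −0.18 ± 0.41. With 2 libraries on each side, the *Chat* call was lost without DIV0 replicate 1 (−1.93), DIV7 replicate 1 (−2.26) or DIV7 replicate 2 (−2.33), and that of *Slc10a4* without DIV7 replicate 1 (−1.84). From DIV7 to DIV28 edgeR and DESeq2 called 0 members, and *Slc5a7* was the only one with an unadjusted p under 0.05 (0.92 ± 0.26, adjusted p = 0.0333, edgeR), beside 7.70% of all genes called.

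Over DIV0 to DIV28, 19.0% of genes were called and 7.45% were called lower. *Slc10a4* fell by 2.51 ± 0.29 on the log2 scale (adjusted p = 5.3e-05, edgeR) and *Chat* by 2.15 ± 0.35 (adjusted p = 0.000613), the 2 members called. *Slc5a7*, at 1.13 ± 0.27, missed the limit on the unadjusted p (adjusted p = 0.00573, edgeR) and was called by DESeq2 (1.10). *Slc18a3* was at −1.05 ± 0.45 (adjusted p = 0.0821, edgeR) and *Ache* at 0.51 ± 0.37. Without DIV0 replicate 1, *Chat* was at −1.83 and not called. With the library titled DIV0 replicate 3 taken as DIV0, 0 members were called from DIV0 to DIV28 (*Chat* −1.66, adjusted p = 0.239, and *Slc10a4* −1.97, adjusted p = 0.210, edgeR), and all-gene calls went from 2447 to 14. Between DIV0 and DIV28 the summed motor neuron markers went from 10330 and 11220 to between 25790 and 63670 normalised counts, and the 5 visceral motor neuron markers, a cholinergic class, from 353 and 440.3 to between 62.0 and 113.5, and their part was not tested. From DIV0 to DIV7 the same change left 0 members called (*Chat* −1.84, adjusted p = 0.209, edgeR) and 168 genes in place of 1440.

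The embryoid-body motor neurons were compared with the E13.5 cord. Against it, DIV0 was called higher for *Chat* (11.2-fold, log2 3.49 ± 0.31, adjusted p = 7.2e-09, edgeR), *Slc18a3* (6.79-fold, 2.76 ± 0.41, adjusted p = 6.02e-06), *Slc10a4* (2.36 ± 0.38, adjusted p = 1.51e-05) and *Ache* (1.84 ± 0.33, adjusted p = 5.38e-05), 4 of 5 members, where 39.4% of 15521 genes were called and 15.1% were called higher. *Slc5a7* was at −0.20 ± 0.34 (adjusted p = 0.609, edgeR). Without E13.5 replicate 1 the log2 changes were 4.14 for *Chat*, 3.58 for *Slc18a3*, 3.05 for *Slc10a4*, 2.19 for *Ache* and 0.69 for *Slc5a7*, and without replicate 2 they were 3.07, 2.26, 1.90, 1.595 and −0.72. *Slc10a4* was at 1.80 and not called with the doubtful title taken as DIV0. The endothelial and erythroid markers tested, 5 of 5 in each list, were called lower at DIV0, where *Flt1*, *Cdh5* and *Cldn5* were at 0, and their part was not tested.

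The cultures at DIV28 were also set against the P21 cord. *Slc10a4* was called lower at DIV28 than at P21 (−1.78 ± 0.31, adjusted p = 5.53e-05, edgeR), 1 of 5 members, where 26.3% of all genes were called and 13.1% were called lower. *Chat* was at −0.89 ± 0.23 (adjusted p = 0.00286, edgeR), which is 1.86-fold and short of the 2-fold limit, and it was called without DIV28 replicate 1 (−1.10). *Slc5a7* was at −0.74 ± 0.27 (adjusted p = 0.0238), *Ache* at −0.58 ± 0.24 (adjusted p = 0.0531) and *Slc18a3* at 0.86 ± 0.32 (adjusted p = 0.0280, edgeR). With the doubtful title taken as DIV0, 0 members were called and *Slc10a4* was at −1.64 (adjusted p = 0.0266, edgeR). The visceral motor neuron markers summed to 797 to 924 normalised counts at P21 and 62.0 to 113.5 at DIV28, with 3 of 5 called lower, and the oligodendrocyte markers to 6306 to 8546 and 44.3 to 62.7, with 6 of 6 called lower, and their part was not tested.

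The change from DIV0 to DIV28 was compared with that from E13.5 to P21 in 1 interaction term. It was −4.38 ± 0.38 for *Chat* (adjusted p = 4.5e-09, edgeR), −4.14 ± 0.49 for *Slc10a4* (adjusted p = 2.64e-07) and −2.41 ± 0.41 for *Ache* (adjusted p = 2.81e-05), 3 of 5 members called, where 41.7% of genes were called and 17.5% were called in that direction. *Chat* and *Slc10a4* rose in the cord interval and fell in the culture interval. *Slc18a3* was at −1.90 ± 0.51 (adjusted p = 0.00262, edgeR) and was called without E13.5 replicate 1 (−2.69), without DIV28 replicate 1 (−2.06) and by DESeq2, while it was at −1.395 without E13.5 replicate 2 and at −1.64 without DIV28 replicate 3, not called in either. *Slc5a7* was at −0.54 ± 0.43 (adjusted p = 0.280, edgeR), at −1.40 without E13.5 replicate 1 and at −0.025 without replicate 2. Without replicate 1 the terms of the called members were −5.01 for *Chat*, −4.81 for *Slc10a4* and −2.74 for *Ache*, and without replicate 2 −3.97, −3.685 and −2.17. With the doubtful title taken as DIV0 these 3 remained called, at −3.745, −3.44 and −2.09, and *Slc18a3* was at −1.29 (adjusted p = 0.0820, edgeR) and *Slc5a7* at −0.94. The term takes the E13.5 libraries with their endothelial and erythroid markers as its base, and DIV28 replicate 3 on the culture side.

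**Figure D3:**
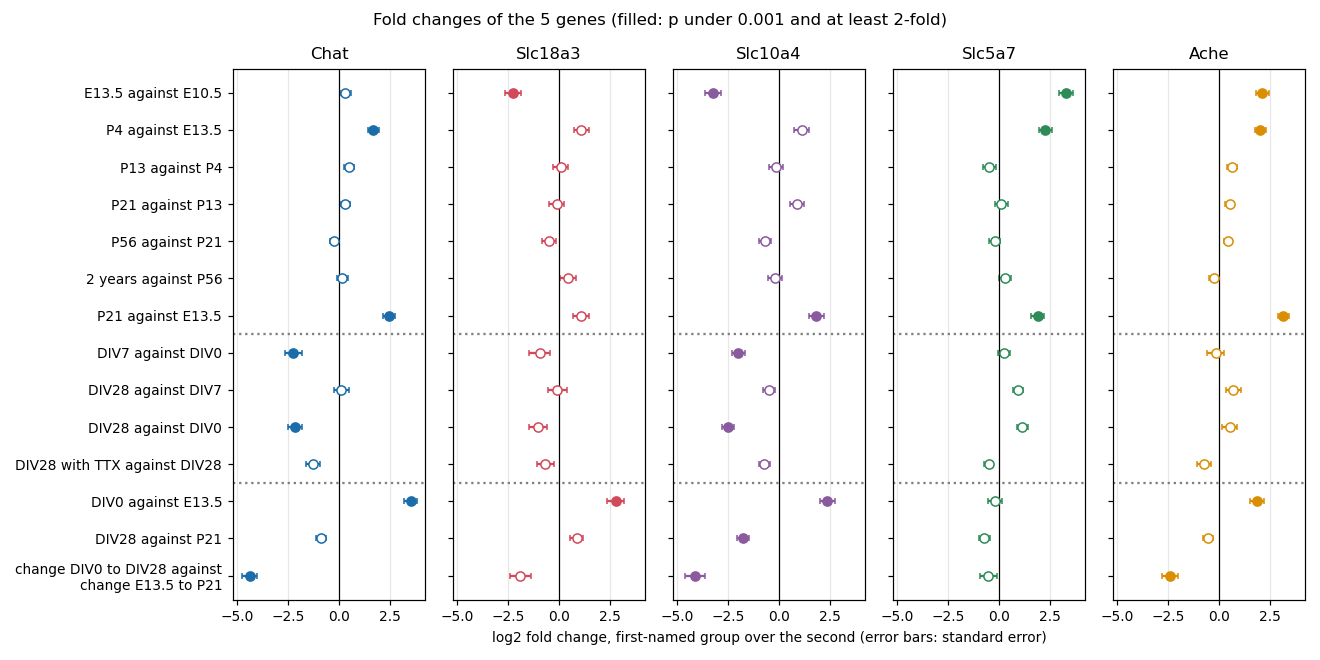
Log2 fold changes of the 5 genes with standard errors in 14 comparisons, the first-named group over the second, with filled points for an unadjusted p under 0.001 and at least a 2-fold change. *Slc5a7* and *Ache* are to the right and *Slc18a3* and *Slc10a4* to the left of 0 for E13.5 against E10.5, and the bottom row, the difference between the culture and the cord change, is lowest for *Chat* (−4.38) and *Slc10a4* (−4.14).

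With TTX the level of every member was below that of the untreated culture of the same number in each of the 3 pairs. The 5 genes share these libraries and their scaling, so these are not independent values. The share of all genes lower in every pair was not counted. In the order of the pairs 1, 2 and 3, the TTX level was 0.50, 0.43 and 0.29 times the untreated level for *Chat*, 0.86, 0.50 and 0.41 times for *Slc18a3*, and 0.47, 0.64 and 0.79 times for *Slc10a4*. For *Slc5a7* it was 0.85, 0.68 and 0.58 times, and for *Ache* 0.58, 0.61 and 0.65 times. The 3 TTX libraries lay below all 3 untreated ones for *Chat*, *Slc5a7* and *Slc10a4*, and overlapped them for *Slc18a3* and *Ache*. The share of all genes without such overlap was not counted either. Without the pairing, edgeR called 0 of 5 members, and *Chat* had the largest change (−1.27 ± 0.33, adjusted p = 0.192). An unadjusted p under 0.05 was reached by 4 members, and the share of all genes at that limit was not counted. Of all genes 0.683% were called. With the replicate number as a block over all 10 culture libraries, *Chat* was called (−1.34 ± 0.21, adjusted p = 0.0161, edgeR). In that fit *Ache* was at −0.74 (adjusted p = 0.0935), *Slc5a7* at −0.55 (adjusted p = 0.153), *Slc18a3* at −0.82 (adjusted p = 0.2105) and *Slc10a4* at −0.73 (adjusted p = 0.232), and all-gene calls went from 88 to 172. That block also ties together DIV0 and DIV7 libraries that share only a number. With the block on only the 6 libraries compared, a fit added after seeing the data, *Chat* was also called (−1.32 ± 0.16, unadjusted p = 1.15e-06, edgeR). DESeq2 without the block also called *Chat* alone.

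*Chat* was called without the block when TTX replicate 1 was left out (−1.68), where *Slc18a3* was at −1.36. Without DIV28 replicate 3, the library of the doubtful title, *Chat* was at −1.38, and with it taken as DIV0 at −1.37, not called in either. The 8 motor neuron markers summed to 25790 to 63670 normalised counts at DIV28 and 21320 to 51930 with TTX, and 0 of 8 were called by edgeR. The astrocyte markers summed to 248, 237 and 717 in the untreated replicates 1 to 3 and 220, 277 and 699 in the TTX ones. The 3 cholinergic interneuron markers summed to 37.1, 34.6 and 48.9 without TTX and to 81.2, 46.7 and 103.5 with it, higher in every pair, and the 6 GABAergic and glycinergic ones to 576, 459 and 351 without and 461, 228 and 264 with it, lower in every pair. Of these 2 lists 0 genes were called, of 1 and 3 tested, and their part in the TTX values was not tested.

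**Figure D4:**
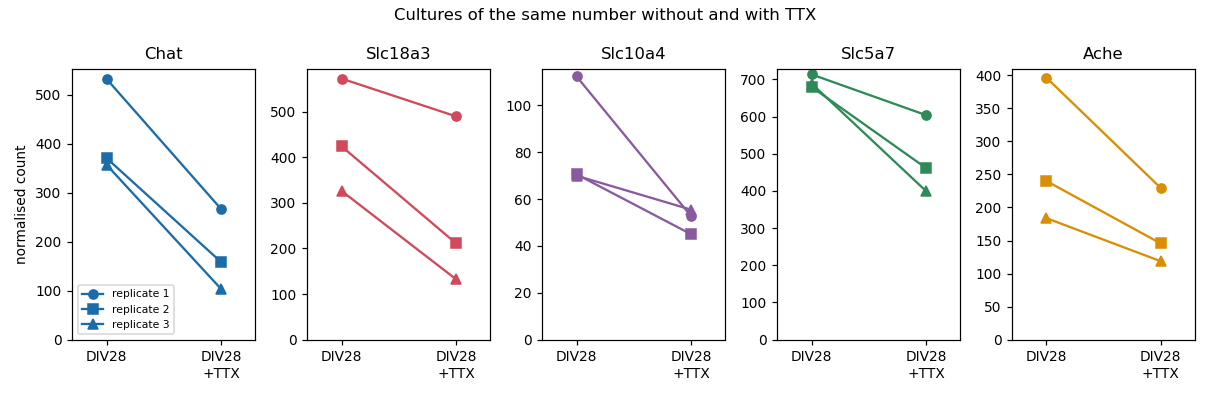
Normalised counts (linear axes from 0) of the 5 genes in the 3 same-numbered pairs of DIV28 cultures without and with 1 µM TTX, with lines joining a pair. The lines of all 5 genes, which share the same libraries and scaling, go down in each pair, a pattern that was not counted over all genes. The *Chat* values of 103 to 267 with TTX are below the 357 to 532 without it.

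Of the members, *Slc5a7* and *Ache* were the most alike over the 11 group means (Pearson r of log2 levels 0.896), followed by *Chat* and *Ache* (0.730) and *Chat* and *Slc5a7* (0.550). *Slc18a3* and its host *Chat* had an r of 0.227 over the 11 groups and of −0.346 over the 7 cord ages. *Slc18a3* and *Slc10a4* were alike in the cord (0.918) and less so over all groups (0.503). These are descriptions over means that share libraries and scaling. Among 15562 genes, those with the pattern most like each member were *Braf*, *Gm15739* and *Ccnt2* for *Chat* (r 0.951 to 0.965), *Slc15a4*, *Gm2990* and *Sesn2* for *Slc18a3* (0.925 to 0.952), *Cnnm3*, *Lhx4* and *Irs1* for *Slc10a4* (0.955 to 0.959), *Adamtsl3*, *Zdhhc22* and *Rgs9* for *Slc5a7* (0.986 to 0.988), and *Gm42548*, *Gm47586* and *Iqsec3* for *Ache* (0.985 to 0.989). *Gm2990* is the antisense gene that overlaps the start of *Chat*.

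Around the members, 58 genes of choline supply, hydrolysis, receptors, receptor assembly and the vesicular transporters of other transmitters were followed. At E13.5 against E10.5, 34 of them were tested, and 9 were called higher and 8 lower, 50% beside 44.1% of all genes. All 5 neuronal nicotinic receptor subunits tested were called lower there, with a median log2 change of −2.82 beside 0.13 over all genes. From E13.5 to P21, 11 of 34 were called higher and 5 lower, 47.1% beside 56.1%. In the choline and acetyl-CoA list, *Acss2*, which makes acetyl-CoA from acetate, had a log2 change of 3.58, and *Chka*, a choline kinase, one of 2.96. *Bche*, the second cholinesterase, fell by 4.11, and *Prima1*, the membrane anchor of acetylcholinesterase, was at 2.28 and lost its call when any of the 5 libraries was left out. The collagen tail gene Colq did not pass the filter on low counts. Of the receptors, *Chrna3* fell by 2.51, *Chrna7* was at 1.35 and lost its call without E13.5 replicate 2 (0.84), P21 replicate 1 (1.25) or P21 replicate 2 (1.27), on only the libraries compared (1.18) and with median-of-ratios scaling (1.25), and the muscarinic receptor *Chrm2* rose by 3.48. *Chrm2* was at 58.4 ± 40.1 normalised counts at E13.5 and 554 ± 21.7 at P21. The nicotinic receptor modulators *Lynx1* and *Lypd6b* rose by 4.11 and 3.39, and 4 of 6 in their list were called higher, beside 29.8% of all genes. No muscle nicotinic subunit passed the filter on low counts in the cord or the cultures.

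From DIV0 to DIV28, 8 of 29 pathway genes were called higher and 2 lower, 34.5% beside 19.0% of all genes. *Slc44a1*, a choline transporter-like gene, rose by 3.71 on the log2 scale, from 45.99 ± 21.8 to 595 ± 53.6 normalised counts. *Pdha1*, a subunit of the enzyme that makes acetyl-CoA from pyruvate, was at 1.78 and lost its call without either DIV0 library. The acetylcholine receptor genes *Chrm3* and *Chrna4* moved apart, with log2 changes of 4.78 and −4.29. *Chrm3* was at 15.8 ± 7.22 normalised counts at DIV0, 1244 ± 13.02 at DIV7 and 435 ± 76.9 at DIV28, against 26.9 ± 6.89 at P21, and it was called higher at DIV28 than at P21 (4.06). *Chrm2* was called lower in that comparison (−2.89), so the 2 muscarinic receptors tested differed in direction between culture and cord. *Lynx1* went from 7.85 ± 1.87 to 1206 ± 320 normalised counts and *Lypd6b* from 1.31 ± 1.85 to 58.8 ± 12.04. The monoamine transporter gene *Slc18a2*, a relative of *Slc18a3*, was at 282 ± 159 at DIV0 and 1.26 ± 1.17 at DIV28, where it had 0 to 2 expected counts. The glutamate transporter gene *Slc17a6* went from 1.31 ± 1.85 at DIV0, with 0 to 2 expected counts, to 65.0 ± 20.5 at DIV28. With the doubtful title taken as DIV0, 0 pathway genes were called from DIV0 to DIV28, and the log2 changes were 1.28 for *Slc44a1*, 1.33 for *Pdha1*, 1.07 for *Chrm3*, −3.73 for *Chrna4*, 2.27 for *Lynx1* in place of 7.29, 1.89 for *Lypd6b* in place of 5.33 and 2.02 for *Slc17a6* in place of 5.47. Against P21, 8 of 34 pathway genes were called higher and 6 lower at DIV28, 41.2% beside 26.3% of all genes, among them *Pld1* (−2.65) and *Enpp2* (−2.09), a phospholipase D and a lysophospholipase D, *Chrna4* (−1.37), *Lynx1* (1.49) and *Ric3* (1.08), a chaperone of nicotinic receptors. *Prima1* (−2.39) and *Chrnb2* (1.07) were called there too, but lost the call without 3 and without 5 of the 6 libraries in turn, and *Bche* was at 0.85 and not called. *Chrna4* lost its call without P21 replicate 3 (−1.17) and on only the libraries compared (−1.39). With the doubtful title taken as DIV0, 8 pathway genes were called against P21, and *Chrna4* (−1.29), *Lynx1* (1.71), *Prima1* (−2.13) and *Chrnb2* (1.19) were not among them. With TTX, 1 of 29 was called beside 0.683% of all genes, *Chrna4* (−1.88 ± 0.42, adjusted p = 0.119, edgeR).

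In the ATAC-seq data each library had 80386 to 224328 peaks, which merged into 565983 regions. Of these, 91 lay in a member or within 20 kb of it: 42 around *Chat* and *Slc18a3*, 25 around *Slc5a7*, 12 around *Slc10a4* and 12 around *Ache*. Within 500 bp of the GENCODE start, *Slc18a3*, *Slc5a7* and *Slc10a4* had a peak in all 22 libraries, and *Ache* in all but E10.5 replicate 1. The merged region over the *Ache* start, chr5:137286591-137288695, had a peak in all 22. The GENCODE start of *Ache*, 137287519, lies upstream of the RefSeq start used for its sequence above, 137288254. Within 500 bp of the *Chat* start no peak was called in either E10.5 library, in DIV0 replicate 1 or in TTX replicate 2. Where the start of *Chat* was covered in the other libraries, the peak had a fold enrichment of 1.59 to 8.51, in some libraries as part of the *Slc18a3* peak. For comparison, 58.5 to 64.5% of all protein-coding starts had a peak. *Slc5a7* thus had a peak at its start in the E10.5 libraries, whose RNA values were the lowest for that gene.

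Regions that came and went with age were found away from the starts. Around *Chat* and *Slc18a3*, 5 and 11 of 42 regions had a peak at E10.5, 19 and 17 at E13.5, 22 and 25 at P21, 15 and 15 at DIV0, 6 and 8 at DIV7 and 19 and 13 at DIV28. Around *Slc5a7*, 2 and 3 of 25 had a peak at E10.5, 9 and 10 at E13.5, 8 and 10 at P21, and 1 or 2 in each of the 8 culture libraries. These counts also move with the number of peaks called per library. A pair of regions in introns of *Chat*, 11803 and 54553 bp downstream of the *Slc18a3* start, had a peak in all 12 cord libraries from E13.5 to 2 years, in 1 of 2 at E10.5 and in both DIV0 libraries, and in 0 of 6 from DIV7 on. A region 26009 bp downstream of the *Slc5a7* start, past the end of the gene, had a peak in 11 of 12 cord libraries from E13.5 on and in none of the E10.5 or culture libraries. Their summit windows are shown because the *Chat* regions had no peak from DIV7 on and the *Slc5a7* region none in any culture, with CTAATG, the motif of Isl1, on either strand in capitals in the *Chat* windows and TATAAA in the *Slc5a7* window. The windows are chr14:32452947-32453147, chr14:32410197-32410397 and chr17:54272925-54273125, on the minus strand.
Chat intron, 11803 bp: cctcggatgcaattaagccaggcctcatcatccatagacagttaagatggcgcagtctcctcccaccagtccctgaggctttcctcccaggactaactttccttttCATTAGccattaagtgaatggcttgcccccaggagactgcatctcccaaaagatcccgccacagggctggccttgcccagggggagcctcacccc
Chat intron, 54553 bp: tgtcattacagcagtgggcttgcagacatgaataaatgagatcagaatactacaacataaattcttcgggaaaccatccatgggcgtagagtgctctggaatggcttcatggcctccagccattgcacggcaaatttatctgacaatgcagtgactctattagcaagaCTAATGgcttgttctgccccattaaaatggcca
Slc5a7 flank, 26009 bp: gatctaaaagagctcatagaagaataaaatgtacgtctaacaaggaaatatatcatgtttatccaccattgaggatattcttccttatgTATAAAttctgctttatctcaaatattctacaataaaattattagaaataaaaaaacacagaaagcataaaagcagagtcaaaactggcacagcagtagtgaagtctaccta
CTAATG was in 10.8% of all 565983 regions and in 6 of the 91 near the members, 6.59%. A further region at −11916 bp from the *Chat* start had a peak in all 6 libraries from P21 to 2 years, in 1 of 2 at P13 and in none of the others.

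Gains and losses near the members were a smaller share than genome-wide in each of 5 comparisons as counted here, but every 95% interval held the genome-wide share. Other settings made them the larger share in some comparisons. With peaks required to cover 50% of a region this held for TTX (18.2% beside 8.19%) and for E13.5 against E10.5 (35% beside 29.0%). It also held for E13.5 against E10.5 with a 50 kb window (36.8% beside 36.6%). With only the 100000 highest peaks it held for DIV28 against P21 (39.4% beside 38.0%). Counting regions with a peak in both libraries of a group and neither of the other, 14 were gained and 1 lost of 47 from E10.5 to E13.5, 31.9% (95% Wilson interval 20.4 to 46.2) beside 36.6% of all regions, where gains were 31.9% of all. From E13.5 to P21, 11 were gained and 5 lost of 66, 24.2% (15.5 to 35.8) beside 35.0%, where gains were 17.4% of all. From DIV0 to DIV28, 6 were gained and 8 lost of 48, 29.2% (18.2 to 43.2) beside 39.5%, although gains were 31.2% of all regions and so exceeded losses. At DIV28 against P21, 0 were gained and 13 lost of 65, 20% (12.1 to 31.3) beside 29.5%, although 16.0% of all regions were gained, more than were lost. With TTX, 0 were gained and 1 lost of 41, 2.44% (0.432 to 12.6) beside 6.35%, with gains at 3.56%. The intervals cover counting error only, and with 2 peak lists per group no test was made.

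**Figure D5:**
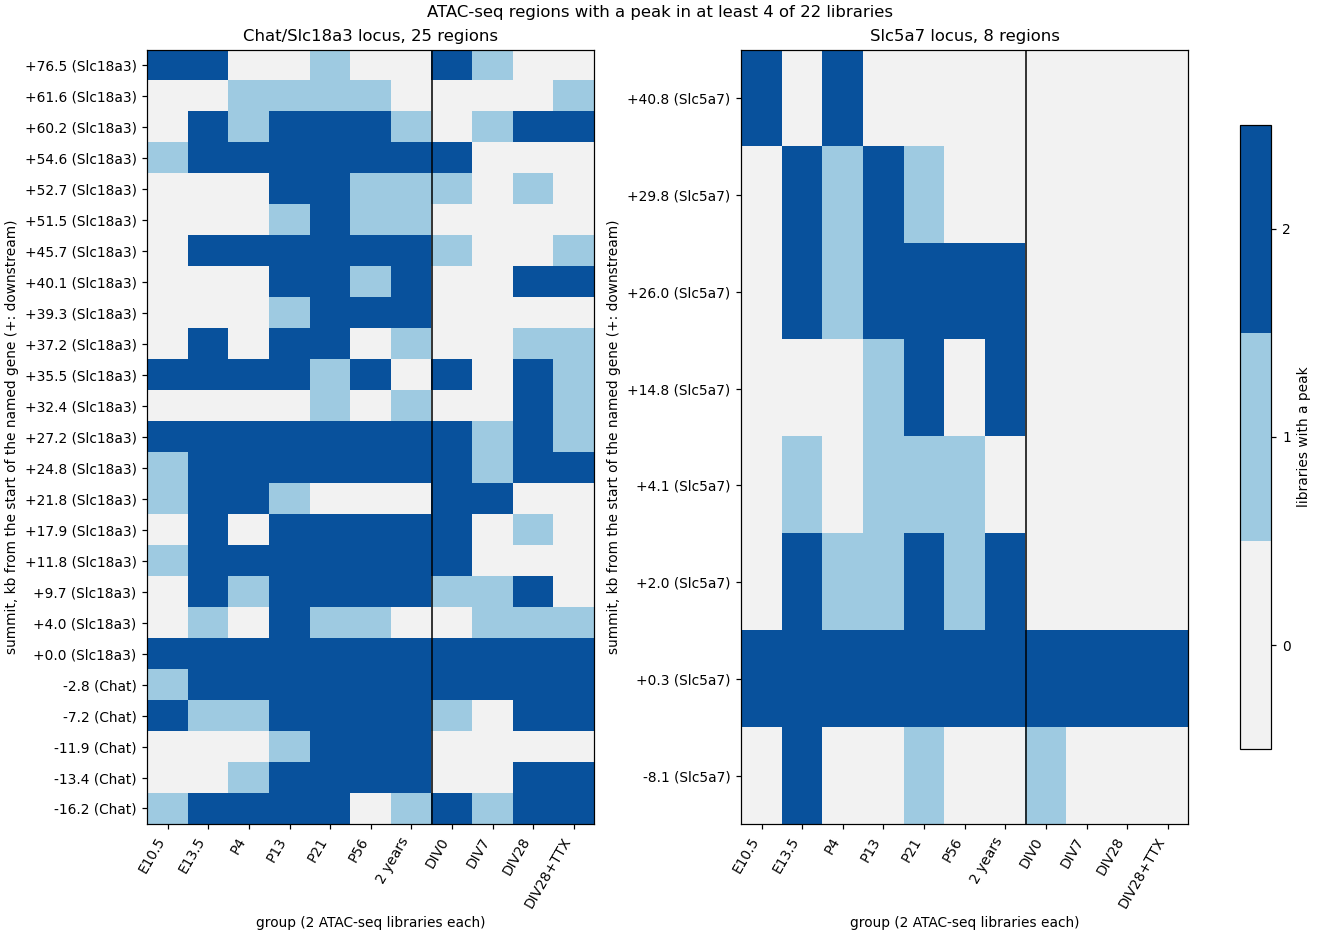
Number of ATAC-seq libraries of each group, 0, 1 or 2, with a peak in regions near *Chat* and *Slc18a3* (25 regions) and *Slc5a7* (8 regions), for regions with a peak in at least 4 of the 22 libraries, with rows labelled by the summit's distance in kb from the start of the named gene. The rows at the *Slc18a3* and *Slc5a7* starts are filled in every group, the *Slc5a7* rows away from the start are nearly empty in culture (right of the line), and the *Chat* intron rows with summits 11803 and 54553 bp downstream of the *Slc18a3* start are empty from DIV7 on.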

How the data were processed

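RNA-seq (28 libraries) and ATAC-seq (22 libraries) of mouse motor neurons were used as deposited. The authors trimmed reads with Trim Galore (cutadapt 0.6.2), aligned RNA reads to mm10 with STAR 2.5.2b and deposited RSEM 1.3.0 gene tables of expected counts, effective length and TPM (corrected for length and library total), from a stranded total RNA kit. ATAC-seq reads were aligned with BWA 0.7.1.7, duplicates were removed with SAMtools 1.7.2, and the authors deposited MACS2 2.2.7.1 peaks per library (p limit 0.01), with fold enrichment over local background and −log10 p and q values. Tool versions are as the methods and submitters' processing notes write them. No reads were used here, so the RNA values cannot be split into spliced and unspliced.

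Expected counts were rounded, scaled by TMM and tested with edgeR 4.0.16 (glmQLFTest, R 4.3.3), keeping genes with a CPM of at least 5 in every replicate of at least 1 group. This left 15030 genes in the 18 cord libraries, 12890 in the 10 culture libraries and 15521 in the 25 libraries without TTX used for cord against culture. Levels are median-of-ratios normalised counts, and genes are compared with each other only per kilobase of effective length, an order that TPM gave in every library too. Tested on data with known answers, P21 against E13.5 (15030 genes) returned 35 of 100 planted 2-fold differences and 94 of 100 planted at 4-fold. These were 20 and 81 of 100 for TTX (12890 genes), and 35 and 94 of 100 for DIV28 against P21 (15521 genes). A planted 2-fold change sits at the fold limit of a call, so estimates that fall below that limit are missed whatever the depth. ATAC-seq peaks were merged where they overlapped by 1 bp (bedtools 2.31.1) and kept within 20 kb of a member. Intervals are 95% Wilson and cover counting error only.

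Members and gene lists were chosen with earlier results of these data known, and no list was trimmed afterwards. Named were the 5 members throughout and, of the pathway lists, at most the 2 called genes of each list with the largest change in the main comparisons. The text names further genes where a result turns on them. Nothing states that replicates were separate litters beyond being separate pools or cultures. No source used here says how TTX and untreated cultures of the same number were related, but their deviations from the group means correlated (r 0.572, 0.497 and 0.657), so they were taken as pairs. Other pairs were at most −0.180. Deviations from a group mean cancel within the group, so these negative values follow from the positive ones and are no separate support. Alternatives were another scaling (RLE), DESeq2 1.42.0, an adjusted p limit of 0.05, no filter, fits on only the libraries compared, the replicate block, each library left out, the doubtful title read as DIV0, and for peaks a −log10 q limit of 1.3, the 100000 highest peaks, a 50 kb window and 50% of a region covered. The replicate groups of 2 or 3 libraries were too small for a test for single outlying libraries.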

Additional observations from a re-analysis of the deposited data

Results flagged for a closer look

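For 3 members the change in culture differed from the change in the cord by a test of the difference itself, and they are given here as values, with no explanation weighed. The change from DIV0 to DIV28 minus that from E13.5 to P21 was −4.38 on the log2 scale for *Chat*, −4.14 for *Slc10a4* and −2.41 for *Ache*. For *Chat* the log2 change was 2.43 in the cord and −2.15 in culture, and for *Slc10a4* 1.82 and −2.51. For *Ache* both were above 0, 3.12 in the cord and 0.51 in culture, the second not called. These single changes came from the separate fits of the cord and of the culture libraries, so they do not sum exactly to the terms, which came from the joint fit. Leaving out E13.5 replicate 1, the library with more of every member, moved the terms to −5.01 for *Chat* and −4.81 for *Slc10a4*. With each library left out in turn (10 fits), the terms ranged from −5.01 to −3.97 for *Chat* and from −4.81 to −3.685 for *Slc10a4*. For *Ache* they ranged from −2.74 to −2.11. With the library of the doubtful title taken as DIV0 they were −3.745 for *Chat*, −3.44 for *Slc10a4* and −2.09 for *Ache*, all still called. The endothelial and erythroid markers of the E13.5 libraries enter these terms, and their part was not tested.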

How the results depend on the processing

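Of 208 alternatives for the counts of called members and the ATAC-seq percentages, 178 stayed within 1.5 times the count or within the interval of the percentage, and 30 moved. Of 1161 alternatives for single genes 1073 kept direction and side of the threshold, 50 fell below it, 22 passed it and 16 turned direction. Of 275 alternatives for the 23 called member values, 0 turned direction and 15 fell below the threshold, and the cause of these changes was not tested beyond what fewer libraries bring. Fitted on only the libraries compared, 2 members were called at E13.5 against E10.5, and with an adjusted p limit of 0.05 all 5 were called at P4 against E13.5. Without a filter on low counts 4 were called at DIV28 against DIV0 and 1 with TTX, and DESeq2 called 1 with TTX. With the doubtful title taken as DIV0, 0 members were called at DIV7 or DIV28 against DIV0 and 0 at DIV28 against P21. Leaving out 1 library gave 0 to 2 called members at DIV7 against DIV0, 1 to 2 at DIV28 against DIV0, 0 to 1 with TTX and 1 to 2 at DIV28 against P21.

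For TTX the replicate block fitted on all 10 culture libraries called 1 member, *Chat*. Fitted on only the 6 libraries compared, an alternative added after seeing the data, the block also called 1 (281 genes in all). In the other comparisons the replicates share only a number (r of same-numbered deviations −0.128 to 0.151). There the replicate block called 1 member, *Slc5a7*, at DIV28 against DIV7 (1519 genes in place of 993), turned *Slc10a4* to 0.0078 at P13 against P4 and *Slc18a3* to 0.14 at DIV28 against DIV7, neither of them called, and changed no other member count by over 1.5 times.

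The uncalled values that turned direction with the doubtful title taken as DIV0 were *Slc5a7* at DIV7 against DIV0 (−0.27) and at DIV0 against E13.5 (0.22), and *Slc18a3* at DIV28 against DIV7 (0.062). Leaving out 1 library at a time, the uncalled log2 changes that turned direction ranged from −0.26 to 0.84 for *Chat* at E13.5 against E10.5, −0.12 to 0.26 for *Slc18a3* and −0.40 to 0.096 for *Slc10a4* at P13 against P4, −0.30 to 0.079 for *Slc18a3* at P21 against P13, and −0.11 to 0.41 for *Slc5a7* at DIV7 against DIV0. At DIV28 against DIV7 they ranged from −0.12 to 0.20 for *Chat* and −0.34 to 0.17 for *Slc18a3*, and at DIV0 against E13.5 from −0.72 to 0.69 for *Slc5a7*.

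For the regions near the members, the percent gained or lost with only the 100000 highest peaks was 18.9 at E13.5 against E10.5 (31.0 over all regions) and 39.4 at DIV28 against P21 (38.0 over all), and with peaks required to cover 50% of a region it was 18.2 for TTX (8.19 over all). Leaving out 1 library leaves a group with a single list, and the percent over all regions then rose too. Near the members it was 39.1 to 48.9 at E13.5 against E10.5 (50.6 to 59.1 over all) and 29.7 to 47.5 at P21 against E13.5 (46.3 to 51.4 over all). It was 35.6 to 50 at DIV28 against DIV0 (46.5 to 70.1 over all) and 8.11 to 16.2 for TTX (17.9 to 20.7 over all). At DIV28 against P21 it was 29.3 to 42.4 (42.4 to 49.8 over all).

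Counts over all genes moved by over 1.5 times in several settings. On only the libraries compared, 3717 genes were called at E13.5 against E10.5 in place of 6621, 2488 at DIV7 against DIV0 in place of 1440, and 191 at 2 years against P56 in place of 103. With an adjusted p limit and with no filter, respectively, the counts were 1659 and 1701 at P21 against P13 (1097), 8 and 115 at P56 against P21 (26), 60 and 281 at 2 years against P56 (103), 2784 and 2657 at DIV7 against DIV0 (1440), 2031 and 2232 at DIV28 against DIV7 (993), 4279 and 4180 at DIV28 against DIV0 (2447) and 27 and 365 for TTX (88). DESeq2 called 1627 at DIV28 against DIV7 and 187 for TTX. With 1 library left out, the lowest counts were 1287 at P13 against P4 (without P13 replicate 1), 705 at P21 against P13 (without P13 replicate 2), 59 at 2 years against P56, 725 at DIV7 against DIV0, 403 at DIV28 against DIV7, 1303 at DIV28 against DIV0 and 56 for TTX. Median-of-ratios scaling moved the median log2 change of all genes from 0.13 to 0.24 at E13.5 against E10.5 and from 0.12 to 0.013 at P4 against E13.5, and the share of higher calls at P21 against P13 from 20.6% to 31.0%.

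The *Ache* values at E10.5 rest on 8 to 23 expected counts. Planted changes of 2-fold were often missed, in part because a call itself needs an estimate of at least 2-fold. Members without a call are thus not shown to be unchanged.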
